A study of Homo sapiens with 30 samples.

Results

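The 33 genes described here encode the enzymes that make fatty acids, lengthen and desaturate them, load them onto coenzyme A, burn them in mitochondria and peroxisomes, and join them to glycerol. They were chosen by symbol, with earlier results of these data known. Each of the 33 symbols stood in all 4 gene-level count tables of the study, which list 57773 genes each. The tables hold 22 RNA-seq libraries from 3 human prostate cancer lines in which the tumour suppressor RB1 was depleted, the androgen receptor was stimulated or the histone demethylase LSD1 (gene KDM1A) was inhibited. The study asked what RB1 loss does in castration-resistant prostate cancer cells and how it bears on LSD1 and its inhibition. In the members as a group, the androgen dihydrotestosterone (DHT) gave the changes of greatest size: 22 of the 32 members tested rose and 4 fell, with ACSL3, AMACR, ELOVL2, ELOVL5 and FASN rising 2.94- to 7.46-fold. RB1 siRNA in VCaP changed 4 members, and doxycycline, which switches on an RB1 hairpin in C4-2 cells, changed between 1 and 10, none of them by more than 1.74-fold in either direction.

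VCaP, an androgen receptor-rich line from a vertebral metastasis that carries the TMPRSS2-ERG fusion, was transfected for 2 days with 20 nM of a non-targeting siRNA (siNTC, 3 libraries) or an siRNA against RB1 (siRB, 3 libraries), in medium labelled as 10% fetal bovine serum. The library names of the same samples carry the letters CSS, used elsewhere in the study for charcoal-stripped serum, so whether androgen had been removed from the serum is not settled. C4-2-tet-shRB is a castration-resistant derivative of LNCaP with an RB1 hairpin that doxycycline (0.05 µg/ml) switches on; whether it is 1 clone is not given in the sources used here. In the first C4-2 table, called the inhibitor table here, cells in 5% charcoal-stripped serum received DMSO, 3 days of doxycycline, the LSD1 inhibitor GSK2879552 (10 µM, 24 hours) or both, with 2 libraries per group. In the second, called the DHT table, cells in 8% stripped plus 2% regular serum had 0, 3 or 30 days of doxycycline and then vehicle or DHT (10 nM, 24 hours), with 1 library per group sequenced on 2 lanes that agreed within sampling noise (chi-square per degree of freedom 0.983 to 1.01), were summed and counted as 1 sample. LNCaP, the androgen-sensitive parent line, received vehicle or GSK2879552 (1 µM, 2 days) in 5% stripped serum, with 1 library per group, also of 2 summed lanes. All C4-2 groups carry the hairpin construct, and no group had doxycycline without it, so effects of the drug and of RB1 depletion cannot be told apart. Nothing in the sources used here says that replicates came from separate cultures, so p-values measure the spread between these samples, which may be technical.

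Cells make fatty acids in the cytosol. Citrate from mitochondria is split to acetyl-CoA, acetyl-CoA carboxylase turns it to malonyl-CoA, and fatty acid synthase builds palmitate from both with NADPH. Elongases and desaturases of the endoplasmic reticulum then lengthen palmitate and add unsaturated bonds, acyl-CoA synthetases activate free fatty acids, and the carnitine shuttle brings them into mitochondria for oxidation. Prostate tumours are known for high fatty acid synthesis and for the peroxisomal racemase AMACR, which pathologists stain as a marker, and androgen is known to raise FASN in LNCaP cells in part through the transcription factors SREBF1 and SREBF2. SREBP proteins bind promoters at sterol regulatory elements, often beside CCAAT boxes bound by NF-Y and GC boxes bound by Sp1.

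The promoter sequences of 6 members are shown because these genes carry the DHT results: the 4 largest rises, 1 member that fell (GPAM), and HADHA, whose promoter overlaps that of HADHB while only HADHB was called with DHT. Each run is the 250 bases before the gene's start, 5′ to 3′ along the gene's strand, from RefSeq's GRCh38.p14 promoter table, which is another build than the authors' hg19. Capitals mark matches, on either strand, to the motifs searched: CACGTG (E-box), CCAAT (NF-Y box), GGGCGG (Sp1 box), TCACNCCAC (sterol element) and AGAACA (androgen half-site), together with the full androgen response element, searched as its inverted repeat and given by name. The first lies at chr2:222860786-222861035 (plus strand).
ACSL3: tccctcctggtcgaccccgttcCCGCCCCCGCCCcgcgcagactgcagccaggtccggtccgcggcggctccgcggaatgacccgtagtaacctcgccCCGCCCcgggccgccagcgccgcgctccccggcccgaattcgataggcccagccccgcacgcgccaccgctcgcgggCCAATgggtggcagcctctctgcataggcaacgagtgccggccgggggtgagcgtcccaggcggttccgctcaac
The AMACR promoter lies at chr5:34008051-34008300 (minus strand).
AMACR: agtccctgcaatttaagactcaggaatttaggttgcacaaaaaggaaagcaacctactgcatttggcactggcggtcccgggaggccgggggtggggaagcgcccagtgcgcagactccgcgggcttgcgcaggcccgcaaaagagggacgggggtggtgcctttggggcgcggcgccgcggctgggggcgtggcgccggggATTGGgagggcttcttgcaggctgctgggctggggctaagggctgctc
The ELOVL2 promoter lies at chr6:11044306-11044555 (minus strand).
ELOVL2: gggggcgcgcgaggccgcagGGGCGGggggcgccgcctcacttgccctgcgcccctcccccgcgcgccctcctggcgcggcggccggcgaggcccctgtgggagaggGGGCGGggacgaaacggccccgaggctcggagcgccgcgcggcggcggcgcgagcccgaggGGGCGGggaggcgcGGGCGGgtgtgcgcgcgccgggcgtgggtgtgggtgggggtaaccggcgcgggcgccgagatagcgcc
The ELOVL5 promoter lies at chr6:53348951-53349200 (minus strand).
ELOVL5: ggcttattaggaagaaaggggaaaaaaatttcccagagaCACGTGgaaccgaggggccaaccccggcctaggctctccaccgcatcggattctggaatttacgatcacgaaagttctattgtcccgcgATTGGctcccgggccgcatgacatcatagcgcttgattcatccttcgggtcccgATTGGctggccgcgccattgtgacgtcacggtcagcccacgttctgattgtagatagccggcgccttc
The GPAM promoter lies at chr10:112183766-112184015 (minus strand).
GPAM: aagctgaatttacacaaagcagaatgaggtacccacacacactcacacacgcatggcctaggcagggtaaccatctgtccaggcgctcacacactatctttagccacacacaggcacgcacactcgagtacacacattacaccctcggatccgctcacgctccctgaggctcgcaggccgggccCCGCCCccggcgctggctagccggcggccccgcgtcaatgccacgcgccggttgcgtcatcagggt
The HADHA promoter lies at chr2:26244633-26244882 (minus strand).
HADHA: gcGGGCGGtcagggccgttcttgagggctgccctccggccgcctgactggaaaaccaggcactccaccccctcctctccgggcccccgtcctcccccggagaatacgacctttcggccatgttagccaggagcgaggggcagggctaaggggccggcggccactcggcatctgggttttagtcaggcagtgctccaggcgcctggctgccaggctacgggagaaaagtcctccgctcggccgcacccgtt

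The ELOVL5 promoter held 2 NF-Y boxes and 1 E-box, ACSL3 held 1 NF-Y box and 3 Sp1 boxes, AMACR 1 NF-Y box, ELOVL2 4 Sp1 boxes, and GPAM and HADHA 1 Sp1 box each. The HADHA and HADHB promoters point away from each other and share 194 of their 250 bases. Of the 33 members, 30 had an entry, with 48 windows of 300 bases (250 before and 50 after a start); FASN, DGAT1 and DGAT2 are named only. The sterol element stood in 2 of the members' 48 windows (4.17%), 1 of ACSL1 and 1 of ACSL6, and in 1.13% of all 35116 windows. The E-box stood in 4.17% of the members' windows and 7.26% of all, the NF-Y box in 37.5% and 34.6%, and the Sp1 box in 68.8% and 45%. These shares were not tested. The androgen half-site stood in 8.33% of the members' windows and 14.8% of all windows, and the full site in none of the members' windows and 0.00285% of all windows. A match is a run of letters, and windows of 1 gene can overlap.

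Counted reads per library ran from 4311455 to 7107036 in VCaP and from 13085157 to 22326960 in the other tables. Levels below are CPM, counts scaled to library size, adjusted by TMM, which corrects for libraries dominated by few genes. RB1 checked the labels: it stood at 56.2 to 63.5 CPM with siNTC and 5.37 to 7.36 with siRB, at 22.1 to 32.9 in the 4 inhibitor-table libraries without doxycycline and 4.63 to 6.7 in the 4 with it, and at 47.6 and 51.1 without and 6.23 to 10 with doxycycline in the DHT table. KDM1A did not pass the test in any comparison except with DHT (log2 -0.26 ± 0.05 SE, edgeR adjusted p = 0.000319). All 9 luminal and androgen receptor markers were present in all 4 tables, ERG stood at 273 CPM or more in VCaP and at most 0.219 elsewhere, and the 4 adipocyte markers summed to at most 2.03 CPM. In VCaP, the liver marker ALB carried a hepatocyte list sum of 52.5 to 60 CPM with siNTC and 38.4 to 40.4 with siRB, the other 2 markers of that list being under 1 CPM, and the basal keratin KRT14 carried sums of 5.78 to 5.93 and 7.2 to 7.84. In the DHT table the stromal list summed to 8.85 to 9.14 CPM with vehicle and 11.9 to 12.7 with DHT. In the inhibitor table, mitochondrially encoded protein genes took 2.72% and 3.58% of reads in the 2 DMSO libraries and 3.99% to 4.61% in the other 6. Between its DMSO and doxycycline libraries the stromal list sum went from 45.3 to 50 CPM down to 38.9 to 39.4, the luminal sum from 13800 to 14100 down to 11500 to 11600, and the neuroendocrine sum, of which only SYP reached 1 CPM, from 2.98 to 3.16 up to 4 to 4.12. The part of these shifts in the results below was not tested. In bulk RNA, fewer cells expressing a gene and less RNA per cell cannot be told apart.

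FASN, which builds palmitate, had the highest level per kilobase of exon among the 33 members in the control group of every table: 182 to 190 CPM per kb in VCaP siNTC, 433 to 473 in C4-2 DMSO, 248 in the C4-2 vehicle library and 265 in LNCaP vehicle. In VCaP the next members were the acetyl-CoA carboxylase ACACA (63.9 to 67 CPM per kb) and the desaturase SCD (57.1 to 60.8). In both C4-2 tables FADS2, the desaturase that opens polyunsaturated fatty acid synthesis, came after FASN (261 to 268 and 171 CPM per kb), and in LNCaP it was ACADVL, a mitochondrial acyl-CoA dehydrogenase (157 CPM per kb). Exon lengths are from GENCODE 29. Since lines, media, kits and tables differ together, levels across tables are given as values only. FADS2 stood at 37.6 to 46.7 CPM in VCaP siNTC, 2880 and 2950 in C4-2 DMSO, 1880 in C4-2 vehicle and 815 in LNCaP vehicle. The polyunsaturated elongase ELOVL2 went the other way, at 83.8 to 95.1 CPM in VCaP siNTC, 1.51 and 1.52 in C4-2 DMSO, 8.97 in C4-2 vehicle and 0.144 in LNCaP vehicle. ACSL5, an acyl-CoA synthetase, stood at 96.5 to 98.1 CPM in VCaP siNTC and under 1 CPM in all 16 libraries of the other lines. ELOVL3, an elongase known from brown fat and skin, was at or near 0 in all 22 libraries (0.22 CPM at most) and was never tested. ELOVL4, an elongase of very long chains, stood at 18.4 to 25.1 CPM in VCaP and at most 1.28 elsewhere, and was not tested in the inhibitor table.

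DHT raised most of the pathway in C4-2 cells. The effect was tested across the 3 doxycycline durations (0, 3 and 30 days), with duration as a term in the model. With 1 library per group, the spread comes from departures from that model and not from replicates. Of 32 members tested, 22 were called higher (68.8% of them, against 24.3% of all 17300 genes tested) and 4 lower (12.5%, against 22.8%). A call is an edgeR quasi-likelihood test with a Benjamini-Hochberg adjusted p under 0.05 over all genes of the table. The median log2 fold change was 0.54 over the members and -0.02 over all genes tested. All 3 DHT libraries lay above all 3 vehicle libraries for 21 members (26.2% of all genes tested), below them for 4 (25.7%), and overlapped them for 7. The 33 members together took 0.997% to 1.06% of counted reads with vehicle and 2.06% to 2.21% with DHT.

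**Figure D1:**
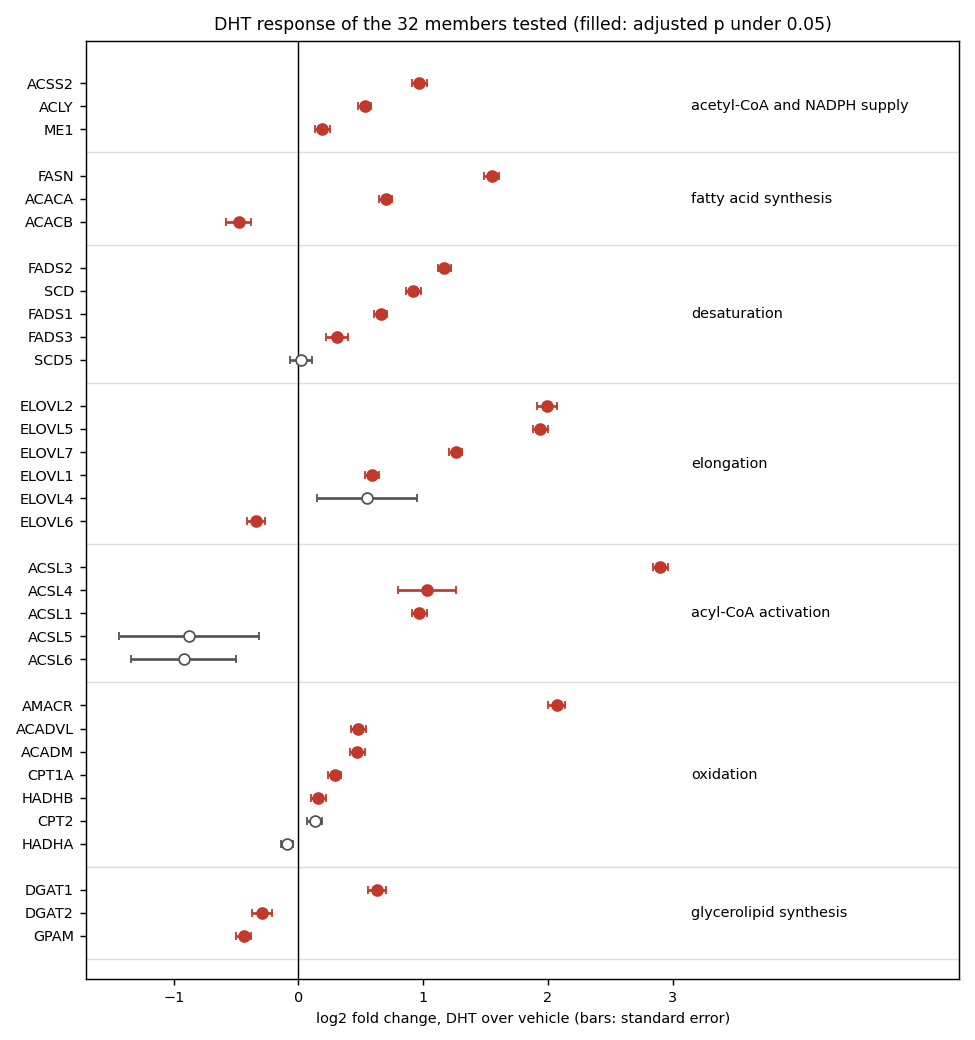
Log2 fold change of DHT over vehicle in C4-2-tet-shRB for the 32 members tested, by role; bars are standard errors, and filled points passed the test. Called rises run through every role, from 0.16 for HADHB to 2.90 for ACSL3, and the called falls are ACACB, GPAM, ELOVL6 and DGAT2. ACSL6 (-0.92), ACSL5 (-0.88) and HADHA (-0.09) also lie below 0 and were not called.

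The 3 suppliers of acetyl-CoA and NADPH all rose. ACSS2, which makes acetyl-CoA from acetate, read 84.1, 76.9 and 80.1 CPM with vehicle after 0, 3 and 30 days of doxycycline, and 197, 139 and 143 with DHT (log2 0.97 ± 0.06, edgeR adjusted p = 6.46e-13). ACLY, which splits citrate, read 772, 757 and 711 CPM with vehicle and 1160, 1090 and 990 with DHT (log2 0.53 ± 0.05, adjusted p = 2.52e-09). DHT and vehicle libraries did not overlap for either gene. The malic enzyme ME1, a source of NADPH, changed least of the 3 (log2 0.19 ± 0.06, adjusted p = 0.0114), and its DHT libraries (192 to 242 CPM) overlapped the vehicle libraries (178 to 193). Its call was lost without the vehicle or the DHT library of day 0 (log2 0.07 and 0.08).

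The synthesis step itself rose with its main carboxylase. FASN read 2320, 2030 and 1910 CPM with vehicle and 6600, 5870 and 5880 with DHT, and each DHT library was over 2-fold above its own vehicle library (log2 1.55 ± 0.06, adjusted p = 7.42e-19). ACACA read 444, 445 and 433 CPM with vehicle and 736, 702 and 704 with DHT (log2 0.70 ± 0.05, adjusted p = 1e-11). ACACB, the carboxylase known to sit at the mitochondrial surface where its malonyl-CoA restrains CPT1, moved the other way. It read 17.3, 16.5 and 18.8 CPM with vehicle and 10.3, 13.8 and 13.5 with DHT, again without overlap (log2 -0.48 ± 0.10, adjusted p = 0.000262).

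Among the desaturases, 4 of 5 rose. FADS2 read 1880, 1910 and 1850 CPM with vehicle and 4420, 4230 and 4060 with DHT (log2 1.17 ± 0.05). SCD, which makes oleate and palmitoleate, read 662, 612 and 573 CPM with vehicle and 1320, 1200 and 996 with DHT (log2 0.92 ± 0.06, adjusted p = 9.21e-14). FADS1, a partner of FADS2 in polyunsaturated synthesis, and FADS3 rose by log2 0.66 ± 0.05 and 0.31 ± 0.09. SCD5, the second human stearoyl-CoA desaturase, was not called (log2 0.02 ± 0.09, adjusted p = 0.9), at 21.7, 22 and 30.8 CPM with vehicle and 16.8, 24.9 and 34.3 with DHT. FADS1 and FADS2 overlap on opposite strands over 4.79% and 4.44% of their exon bases, and the strand setting of the counting is not given in the sources used here, so a small part of their reads cannot be assigned.

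Elongases split. ELOVL2 read 8.97, 9.59 and 14.3 CPM with vehicle and 32.7, 38.8 and 59.4 with DHT (log2 1.99 ± 0.08, adjusted p = 1.82e-17). ELOVL5, which extends polyunsaturated chains, read 546, 574 and 640 CPM with vehicle and 2360, 2120 and 2280 with DHT (log2 1.94 ± 0.06, adjusted p = 2.26e-20). Both stood far above their vehicle libraries at each duration. ELOVL7 and ELOVL1, elongases of long and very long saturated chains, rose by log2 1.26 ± 0.05 and 0.59 ± 0.06. ELOVL6, which extends palmitate, fell: it read 40.4, 44.6 and 42.3 CPM with vehicle and 30.8, 36.2 and 33.7 with DHT, without overlap (log2 -0.34 ± 0.07, adjusted p = 0.000148). ELOVL4 stayed at 1.04 CPM or less and was not called (log2 0.55 ± 0.40).

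ACSL3, an acyl-CoA synthetase of the endoplasmic reticulum and lipid droplets, had the greatest rise of the members. It read 318, 356 and 362 CPM with vehicle and 2720, 2510 and 2490 with DHT (log2 2.90 ± 0.06, adjusted p = 1.46e-23). The lowest DHT library thus stood 2490 CPM high against 362 CPM in the highest vehicle library. ACSL1 read 757, 709 and 672 CPM with vehicle and 1610, 1360 and 1240 with DHT (log2 0.97 ± 0.06). The rise was again seen at every duration. ACSL4, a synthetase that prefers arachidonate, was low throughout: 1.3, 2.14 and 1.27 CPM with vehicle and 3.5, 3.5 and 2.63 with DHT (log2 1.03 ± 0.23, adjusted p = 0.000492). ACSL5 and ACSL6 were at most 1.1 CPM and not called.

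**Figure D2:**
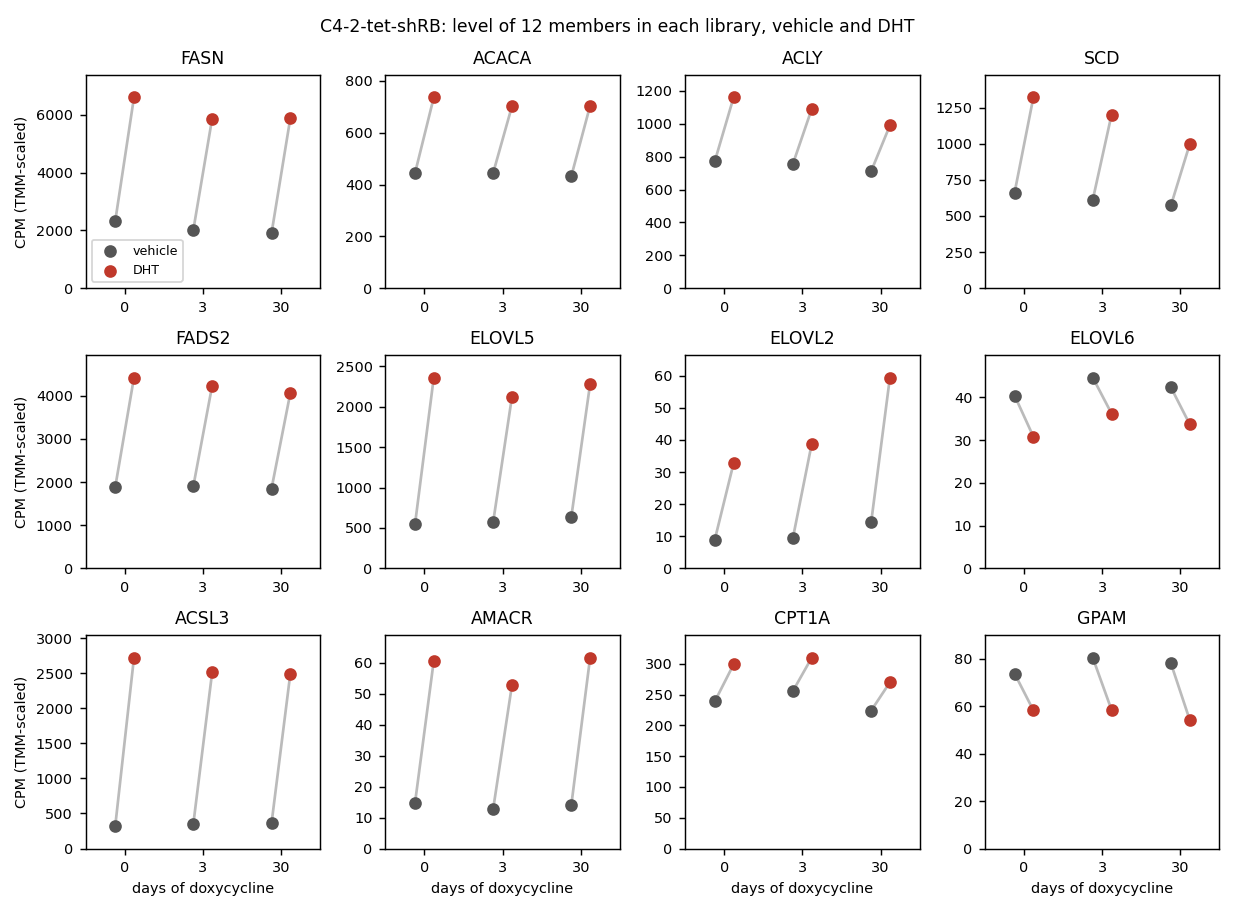
TMM-scaled CPM of 12 members in each of the 6 libraries of the DHT table, against days of doxycycline; grey points are vehicle, red points DHT, and each line joins the pair at 1 duration. ACSL3 goes from 318 to 362 CPM with vehicle to 2490 to 2720 with DHT, and ELOVL6 and GPAM lie lower with DHT at each duration.

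Of the 7 oxidation genes, 5 rose, AMACR most. AMACR, which readies branched-chain fatty acids for oxidation, read 14.7, 12.8 and 14.1 CPM with vehicle and 60.6, 52.7 and 61.6 with DHT (log2 2.07 ± 0.07, adjusted p = 6.13e-19). Of its exon bases 55% are shared with the read-through gene C1QTNF3-AMACR on the same strand, so its level is uncertain to the extent that the counting split or dropped such reads. CPT1A, the gate of the carnitine shuttle, read 239, 256 and 224 CPM with vehicle and 299, 310 and 270 with DHT (log2 0.29 ± 0.05, adjusted p = 3.25e-05). The dehydrogenases ACADVL and ACADM, for very long and medium chains, rose by log2 0.48 ± 0.06 and 0.47 ± 0.06. CPT2, the inner carnitine transferase, was not called (log2 0.13 ± 0.06, adjusted p = 0.0805). The subunits of the mitochondrial trifunctional protein gave 2 different calls from overlapping promoters: HADHB read 117, 115 and 118 CPM with vehicle and 141, 122 and 128 with DHT (log2 0.16 ± 0.06, adjusted p = 0.0204), and HADHA read 173, 182 and 167 and then 176, 159 and 155 (log2 -0.09 ± 0.05, adjusted p = 0.18). The difference between the subunits was not tested. HADHB's call was lost without the vehicle or DHT library of day 0 (log2 0.11 for each) or of day 30 (0.18 for each).

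Glycerolipid genes were the one role in which falls outnumbered rises, with 2 of 3 lower. GPAM, the first acylation of glycerol phosphate, read 73.8, 80.5 and 78.1 CPM with vehicle and 58.3, 58.5 and 54.3 with DHT (log2 -0.44 ± 0.06, adjusted p = 7.25e-07). DGAT1 and DGAT2 both make triglyceride and moved apart. DGAT1 read 25.1, 27.5 and 30 CPM with vehicle and 45.4, 40.2 and 42.4 with DHT (log2 0.63 ± 0.07). DGAT2 read 28, 28.3 and 25.4 and then 23.5, 24.8 and 18.6 (log2 -0.29 ± 0.08, adjusted p = 0.00333), a call lost without the vehicle or DHT library of day 30 (-0.22 for each). Across all roles DESeq2 called 19 members higher and 3 lower, without ME1, FADS3, HADHB and DGAT2.

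A wider set of 88 pathway genes outside the 33 was described beside them: of 81 tested with DHT, 41 rose (50.6%, against 24.3% of all genes) and 12 fell (14.8%, against 22.8%), with a median log2 of 0.18. Of 18 regulators tested 10 rose and 3 fell. SREBF1 read 619, 593 and 557 CPM with vehicle and 926, 823 and 758 with DHT (log2 0.50 ± 0.05, adjusted p = 8.81e-09), and SREBF2 rose by 0.23 ± 0.05 (adjusted p = 0.000991). The 3 rises of smallest p were ECI2, a peroxisomal enoyl-CoA isomerase (log2 1.77 ± 0.06), ACADL, a long-chain dehydrogenase (2.01 ± 0.08), and INSIG1, which holds the SREBP escort SCAP in the endoplasmic reticulum (1.17 ± 0.06). The 3 falls of smallest p were the transketolase TKT (-0.41 ± 0.05), the mitochondrial acetate enzyme ACSS1 (-0.73 ± 0.10) and the transporter SLC27A2 (-0.49 ± 0.07). Peroxisomal oxidation had 9 rises and 2 falls among 14 tested, and uptake and binding 2 and 2 among 6.

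FASN's profile over the 6 libraries was shared by many genes, and all of them carry the same split between DHT and vehicle. Those most alike by Pearson r of log2 CPM among the 10337 genes averaging 3 or more on that scale included EPS8L2 (r = 0.9996), ZNF652 (0.9991), DNASE1L1 (0.9989) and PARVA (0.9987). In all, 231 genes (2.23%) reached 0.99. Among the members ACACA (0.996), FADS2 (0.995), AMACR (0.993), ACSL3 (0.988) and ACSL1 (0.987) came closest, and GPAM (-0.975), ELOVL6 (-0.938) and ACACB (-0.896) ran opposite. These are descriptions over 6 libraries.

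DHT responses were then set against doxycycline duration, with 1 library on each side and hence no test at a single duration. Among the 28 members with at least 100 counts in the pair, 10 were more than 2-fold higher at 0 days (4.13% of all genes with such counts), 7 at 3 days (3.21%) and 7 at 30 days (3.2%). None was more than 2-fold lower at any duration, against 3.25%, 1.81% and 1.79% of all genes. The 7 past 2-fold at every duration were FASN, FADS2, ELOVL2, ELOVL5, ELOVL7, ACSL3 and AMACR. ACSL3 went from 8.64-fold at 0 days to 7.05- and 6.88-fold, ELOVL5 from 4.36- to 3.69- and 3.56-fold, while FASN went from 2.87- to 2.89- and 3.08-fold. ACACA rose 1.67-, 1.58- and 1.62-fold, ACLY 1.52-, 1.44- and 1.39-fold, SCD 2.01-, 1.95- and 1.74-fold, CPT1A 1.26-, 1.21- and 1.21-fold and AMACR 4.17-, 4.13- and 4.36-fold. Of 28 members, 22 were above 1 at all 3 durations, 4 (ACACB, ELOVL6, GPAM, DGAT2) below 1 at all 3, and SCD5 and HADHA changed side.

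The test of the difference, taking the 3- and 30-day pairs as doxycycline and the 0-day pair as control, called 1 member with a greater DHT response under doxycycline (1.09% of all genes) and 2 with a smaller one (0.312%). The 0-day arm has 1 pair and the model 1 residual degree of freedom, so these calls lean on spread shared across genes. ACSS2 had a DHT response that was smaller by log2 0.35 ± 0.10 under doxycycline (log2 -0.35, edgeR adjusted p = 0.0191), from 2.36-fold at 0 days to 1.81- and 1.78-fold. ME1 went from 1.37-fold to 1.06- and 1.03-fold (log2 -0.35 ± 0.09, adjusted p = 0.00793). SCD5 changed sides, from 0.782-fold at 0 days to 1.13- and 1.11-fold (log2 0.56 ± 0.17, adjusted p = 0.0495). FASN (0.10 ± 0.08), ACACA (-0.02 ± 0.09), ACLY (-0.06 ± 0.09), SCD (-0.09 ± 0.09), ACSL3 (-0.27 ± 0.09, adjusted p = 0.102), CPT1A (-0.02 ± 0.09) and AMACR (0.07 ± 0.16) were not called. SREBF1 (-0.09 ± 0.09) and SREBF2 (-0.02 ± 0.09) were not called. Of the 81 wider genes 0 had a greater response (against 1.09% of all genes) and 2 a smaller one (2.47%, against 0.312%). These were SLC25A20 (-0.69 ± 0.15), the carnitine-acylcarnitine carrier, and IDH1 (-0.36 ± 0.09), a cytosolic NADPH source. DESeq2 called 0 members here in either direction. At an unadjusted p under 0.05 edgeR gave 2 members with a greater and 7 with a smaller response, against 1037 and 839 of all 17300 genes. The median over the 32 members was log2 -0.08, with 24 below 0, and over all genes it was 0, with 8556 of 17300 below 0.

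RB1 siRNA in VCaP changed 4 of 32 members, none by more than log2 0.29 in size. Of these, 2 rose (6.25%, against 2.96% of all 14066 genes tested) and 2 fell (6.25%, against 2.65%), and the median log2 was 0 over the members and over all genes. CPT1A rose, at 259, 253 and 261 CPM with siNTC and 306, 322 and 310 with siRB (log2 0.28 ± 0.04, adjusted p = 3.81e-08). SCD fell, at 326, 306 and 312 CPM with siNTC and 258, 266 and 266 with siRB (log2 -0.26 ± 0.04, adjusted p = 1.64e-07). ACSL5 fell as well, at 96.5, 98.1 and 96.9 CPM with siNTC and 80.4, 76.7 and 82.1 with siRB (log2 -0.29 ± 0.06, adjusted p = 0.000245). In each of these genes the 3 siRB libraries lay outside the range of the 3 siNTC libraries, and each call held without any 1 library. They were picked by the test on these libraries, and the share of all genes so separated was not computed. ELOVL2 read 83.8, 88.6 and 95.1 CPM with siNTC and 97.5, 98.2 and 110 with siRB (log2 0.19 ± 0.06, adjusted p = 0.0373). That call was lost without siNTC library 1 or 2 or siRB library 2 or 3 (log2 0.14, 0.18, 0.21 and 0.13), and DESeq2 did not make it (adjusted p = 0.288).

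The synthesis genes of VCaP gave differences near 0 that were not called: FASN -0.01 ± 0.03 (1780, 1720 and 1700 CPM against 1760, 1710 and 1680), ACACA -0.06 ± 0.03 and ACLY -0.07 ± 0.04. ACSL3 (-0.04 ± 0.04) and AMACR (-0.07 ± 0.15) were not called either. The regulator SREBF1 fell from 134, 121 and 125 CPM to 93.6, 91.7 and 88 (log2 -0.47 ± 0.05, adjusted p = 6.92e-11), and SREBF2 was not called (0.09 ± 0.03, adjusted p = 0.114). Of 76 wider pathway genes tested 0 rose (against 2.96% of all genes) and 3 fell (3.95%, against 2.65%): SREBF1, IDH1 (-0.19 ± 0.04) and INSIG1 (-0.18 ± 0.06). At an unadjusted edgeR p under 0.05, 7 were higher and 8 lower, against 1233 and 1241 of all 14066 genes. The androgen target KLK3 rose in the same libraries (log2 0.38 ± 0.04).

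**Figure D3:**
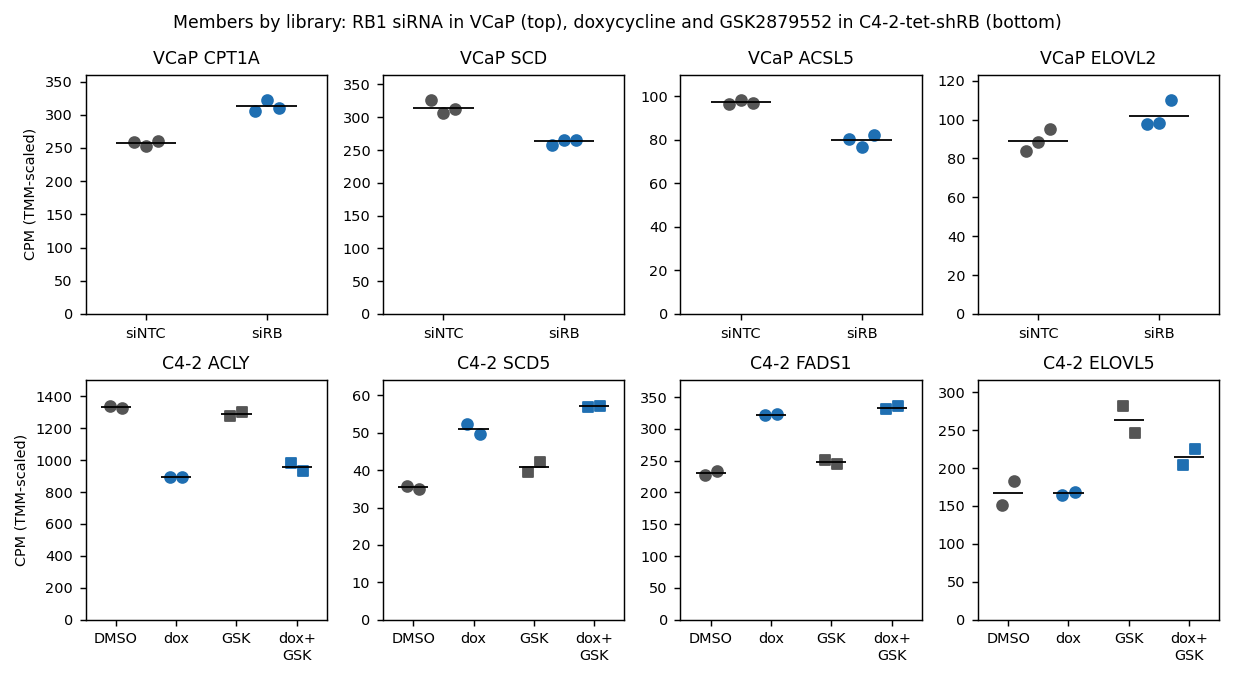
TMM-scaled CPM in each library (points) with group means (lines): RB1 siRNA in VCaP above, and doxycycline (blue) with or without GSK2879552 (squares) in C4-2-tet-shRB below. CPT1A lies higher and SCD and ACSL5 lower in the 3 siRB libraries (blue), ACLY lies lower in all 4 doxycycline libraries, and ELOVL5 lies highest with GSK2879552 alone.

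In C4-2 cells with DMSO, 3 days of doxycycline changed 10 of 31 members: the citrate enzyme ACLY and both acyl-CoA dehydrogenases fell, and desaturases and elongases made up 5 of the 7 rises. Called higher were 7 (22.6%, against 4.25% of all 18423 genes tested) and lower 3 (9.68%, against 3.59%), with a median log2 of 0.09 over the members and 0 over all genes. ACLY fell most, from 1340 and 1330 CPM to 893 and 897 (log2 -0.58 ± 0.05, adjusted p = 8.58e-06). Desaturases rose in 3 of 5 cases. SCD5 went from 35.9 and 35.1 CPM to 52.4 and 49.6 (log2 0.52 ± 0.08, adjusted p = 0.00107), and FADS1 from 228 and 234 to 321 and 324 (log2 0.47 ± 0.06, adjusted p = 0.000128). FADS2 went from 2950 and 2880 CPM to 3500 and 3390 (log2 0.23 ± 0.06, adjusted p = 0.0194). In all 4 genes the doxycycline libraries lay outside the range of the DMSO libraries. The genes were picked by the test on these same libraries, and the share of all genes so separated was not computed.

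Of 5 elongases tested 2 rose: ELOVL7 from 22.5 and 26.9 CPM to 32.3 and 34.6 (log2 0.43 ± 0.12, adjusted p = 0.0372) and ELOVL6 from 60.8 and 54 to 69.5 and 71.9 (log2 0.29 ± 0.09, adjusted p = 0.0447). ACSS2 rose by log2 0.28 ± 0.07 (85.4 and 86 CPM to 106 and 104) and CPT2 by 0.25 ± 0.07. The dehydrogenases fell: ACADM went from 51.9 and 59.4 CPM to 42.2 and 43.9 (log2 -0.38 ± 0.10, adjusted p = 0.0242) and ACADVL from 802 and 738 to 648 and 628 (log2 -0.28 ± 0.06, adjusted p = 0.0137). FASN (-0.01 ± 0.08), ACACA (-0.16 ± 0.05, adjusted p = 0.0889), SCD (0.09 ± 0.06), ACSL3 (0.20 ± 0.08), CPT1A (0.17 ± 0.06, adjusted p = 0.0835) and AMACR (0.05 ± 0.10) were not called. Only the calls of ACLY, SCD5 and FADS1 held without any 1 of the 8 libraries. Without either DMSO library or either doxycycline library in turn 2 members were called higher, and without either library with doxycycline and GSK2879552 4 were. Without DMSO library 1 or either doxycycline library 1 member was called lower.

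None of the 4 VCaP calls was among these 10, and the share of all genes called in both was not computed. SREBF1 (0.00 ± 0.08) and SREBF2 (0.16 ± 0.06, adjusted p = 0.138) were not called. Of 83 wider genes 3 rose (3.61%, against 4.25% of all genes) and 2 fell (2.41%, against 3.59%). The rises were INSIG1 (0.57 ± 0.07), SLC27A2 (0.50 ± 0.11), a very long-chain acyl-CoA synthetase and transporter, and LPIN1 (0.23 ± 0.07), a phosphatidate phosphatase. The sterol sensor NR1H3 and LPIN3 fell (-0.32 ± 0.10 and -0.32 ± 0.09). KLK3 fell in these libraries (log2 -0.29 ± 0.05).

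In the DHT table, over both vehicle and DHT pairs, 3 days of doxycycline changed 1 of 32 members, and 30 days changed 7. Both share the day-0 libraries. At 3 days 0 members were called higher (0.272% of all genes; 2 at an unadjusted p under 0.05, and 0 with DESeq2) and 1 lower (3.12%, against 0.197%). This was ACSS2 (log2 -0.34 ± 0.08, edgeR adjusted p = 0.0428), at 84.1 and 197 CPM without doxycycline and 76.9 and 139 with it, in vehicle and DHT. The call was lost without the DHT library of day 0 or day 3 (log2 -0.15 and -0.27), with DESeq2 (adjusted p = 0.182) and with DESeq2 size factors in edgeR (adjusted p = 0.0524). Without the vehicle library of day 0, more members and more of all genes were called in both directions.

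At 30 days 2 members were called higher (6.25%, against 2.51% of all genes) and 5 lower (15.6%, against 1.52%). ELOVL2 rose from 8.97 to 14.3 CPM in vehicle and from 32.7 to 59.4 in DHT (log2 0.80 ± 0.10, adjusted p = 1.22e-05). SCD5 rose from 21.7 to 30.8 and from 16.8 to 34.3 (log2 0.74 ± 0.11, adjusted p = 0.000175). Both calls held without any 1 library. ELOVL2 and SCD were called in the same directions with RB1 siRNA in VCaP, where the ELOVL2 call held in only 2 of 6 fits without 1 library. CPT1A and ACSL5, also called in VCaP, were not called here (log2 -0.13 ± 0.06 and -0.33 ± 0.66). How many of all genes were called in both comparisons was not computed. SCD fell from 662 to 573 and from 1320 to 996 CPM (log2 -0.31 ± 0.07, adjusted p = 0.00704), and ACSS2 from 84.1 to 80.1 and from 197 to 143 (-0.28 ± 0.08, adjusted p = 0.0352). ACSL1 fell from 757 to 672 and from 1610 to 1240 CPM (-0.28 ± 0.07, adjusted p = 0.0139), and ACADVL from 415 to 377 and from 641 to 487 (-0.27 ± 0.07, adjusted p = 0.0191). ELOVL1 was the fifth (-0.26 ± 0.07, adjusted p = 0.0403). All 5 falls lost their call without the day-30 DHT library, where 0 members were called lower (log2 -0.22 for SCD, -0.18 for ACSS2, -0.22 for ACSL1, -0.20 for ACADVL and -0.24 for ELOVL1). Without the day-0 DHT library ACSS2, ELOVL1 and ACADVL lost their calls (log2 -0.10, -0.15 and -0.18) and FASN gained one (-0.28). ELOVL1 also lost its call without the day-30 vehicle library (log2 -0.28). DESeq2 did not call ACSS2 or ELOVL1 (adjusted p = 0.202 and 0.228) and called FASN lower (adjusted p = 0.0303). Without the day-0 vehicle library more members and more of all genes were called in both directions.

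The remaining main members were not called at either duration. At 3 and 30 days FASN gave -0.19 ± 0.07 and -0.23 ± 0.07 (adjusted p = 0.247 and 0.0511), ACACA -0.05 ± 0.06 and -0.06 ± 0.06, ACLY -0.07 ± 0.06 and -0.18 ± 0.06, ACSL3 0.00 ± 0.07 and 0.02 ± 0.07, CPT1A 0.06 ± 0.06 and -0.13 ± 0.06, and AMACR -0.21 ± 0.09 and 0.00 ± 0.09. SCD at 3 days gave -0.14 ± 0.07. SREBF1 was lower by log2 0.23 ± 0.06 at 30 days (log2 -0.23, adjusted p = 0.0469) and not called at 3 days (-0.13 ± 0.06), and SREBF2 was not called at either (-0.15 ± 0.07 and -0.12 ± 0.07). Of 81 wider genes none was called at 3 days in either direction, with 3 higher at an unadjusted p under 0.05. At 30 days 4 rose (4.94%, against 2.51% of all genes) and 4 fell (4.94%, against 1.52%). Among the rises were PRKAA2 (0.54 ± 0.08), a catalytic subunit of the energy sensor AMPK, CRAT (0.42 ± 0.09), the carnitine acetyltransferase, and HADH (0.35 ± 0.08), a mitochondrial dehydrogenase. The 4 that fell included SREBF1, LPIN1 (-0.27 ± 0.07) and IDH1 (-0.28 ± 0.08).

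**Figure D4:**
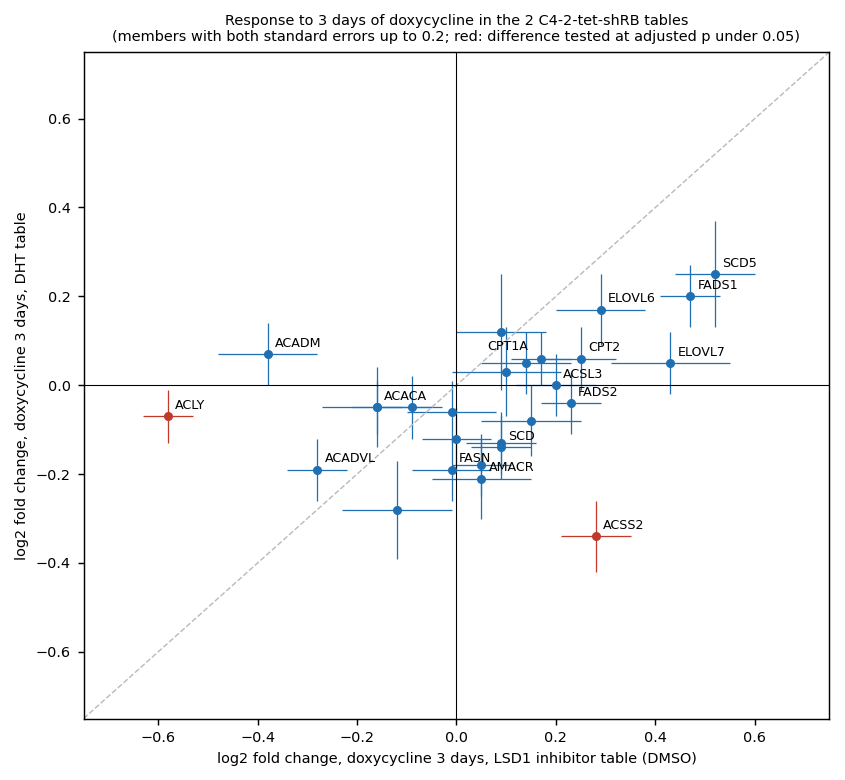
Log2 fold change after 3 days of doxycycline in the inhibitor table (horizontal) and the DHT table (vertical) for the 27 members with both standard errors up to 0.2; bars are standard errors and the dashed line marks equal responses. ACLY and ACSS2, in red, are the members whose responses differed by test.

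The same doxycycline dose and time gave 10 calls in 1 C4-2 table and 1 in the other, with ACSS2 called in both and with opposite signs. The tables differ in serum and library kit at once. The DHT-table estimate also spans vehicle and DHT pairs with 1 library per group, against DMSO alone with 2 per group in the inhibitor table. The part of each cannot be told apart. A joint model of all 14 C4-2 libraries tested the difference. ACLY fell more in the inhibitor table (difference log2 -0.50 ± 0.09, edgeR adjusted p = 0.00127), and ACSS2 differed in sign (0.63 ± 0.12, adjusted p = 0.00232). These made 1 higher and 1 lower call of 32 (0.673% and 0.367% of all 19898 genes tested). SCD5 (0.27 ± 0.15), FADS1 (0.28 ± 0.09, adjusted p = 0.15), FADS2 (0.28 ± 0.09, adjusted p = 0.137), ACADM (-0.43 ± 0.13, adjusted p = 0.0992), FASN (0.20 ± 0.11), ACACA (-0.10 ± 0.08), SCD (0.25 ± 0.09), ACSL3 (0.21 ± 0.11), CPT1A (0.12 ± 0.09) and AMACR (0.27 ± 0.14) were not called. Among wider genes INSIG1 differed (0.66 ± 0.10, adjusted p = 0.000443), and SREBF1 (0.13 ± 0.10) and SREBF2 (0.32 ± 0.10) were not called. ACLY held without any 1 of the 14 libraries, and ACSS2 was lost without the DHT library of day 0 or day 3 (0.45 and 0.56). Without either library of GSK2879552 alone, more members and more of all genes were called in both directions. Over the siRNA comparison and the 3 doxycycline comparisons, 17 members were called in none, 11 in 1, 4 (SCD, SCD5, ELOVL2, ACADVL) in 2 and ACSS2 in 3, with opposite signs. The matching shares of all genes were not computed.

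Inhibition of LSD1 for 24 hours raised 1 member past the test, the elongase ELOVL5. It read 151 and 183 CPM with DMSO and 282 and 246 with GSK2879552 (log2 0.65 ± 0.09, adjusted p = 0.000603). Under doxycycline it read 164 and 169 CPM with DMSO and 204 and 225 with the inhibitor (log2 0.38 ± 0.09, adjusted p = 0.0354). In both arms the inhibitor libraries lay above the DMSO libraries, a separation whose share over all genes was not computed. The call without doxycycline held without any 1 library, and the call with doxycycline was lost without any of its own 4 libraries (log2 0.35 and 0.38 without a doxycycline library, 0.44 and 0.29 without a library of both agents). The difference between the arms was not called (log2 -0.28 ± 0.12, edgeR adjusted p = 0.984). Without GSK2879552 library 2 ELOVL5's difference was -0.37, in a fit that called more of all genes in both directions.

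Without doxycycline 1 of 31 members was called higher (3.23%, against 0.619% of all genes) and 0 lower (0.0597%), and with doxycycline 1 higher (against 1.24%) and 0 lower (0.0923%). At an unadjusted edgeR p under 0.05, 4 and 2 members were higher and lower without doxycycline and 3 and 1 with it. Over all 18423 genes these counts were 1233 and 983 without doxycycline and 1249 and 726 with it. DESeq2 called 0 lower in both. For the difference, edgeR and DESeq2 called 0 members in either direction (0% and 0.0163% of all genes for edgeR). There 0 and 1 had an unadjusted edgeR p under 0.05, against 464 and 415 of all genes. FASN read 4430 and 4050 CPM with DMSO and 3160 and 3930 with the inhibitor (log2 -0.27 ± 0.08, adjusted p = 0.168), and 4290 and 4180 and then 3900 and 3600 under doxycycline (-0.17 ± 0.08, adjusted p = 0.479). FASN was the lowest in GSK2879552 library 1. The 2 libraries of GSK2879552 alone differed most (chi-square per degree of freedom 7.88, against 1.61 to 3.56 in the other groups). With no filter FASN was called lower in both arms (log2 -0.26 and -0.18, edgeR adjusted p = 2.3e-06 and 0.00834). Those unfiltered fits called 56 and 94 of all 35528 genes lower. Without GSK2879552 library 2 the FASN log2 fold change without doxycycline was -0.44. Without library 1 or 2 of GSK2879552 alone, the doxycycline arm gave -0.17 and -0.18 for FASN and -0.27 each for AMACR. In these fits more of all genes were called in both directions than with all libraries. ACACA (0.00 ± 0.05 and 0.07 ± 0.05), ACLY (-0.05 ± 0.05 and 0.11 ± 0.05), SCD (-0.07 ± 0.06 and 0.05 ± 0.06), ACSL3 (0.09 ± 0.08 and 0.00 ± 0.08), CPT1A (0.02 ± 0.06 and 0.03 ± 0.06) and AMACR (-0.05 ± 0.10 and -0.26 ± 0.10) were not called in either arm. Among 83 wider genes CRAT was the single call in each arm (0.60 ± 0.07 and 0.66 ± 0.07). That is 1.2% of them higher, against 0.619% and 1.24% of all genes without and with doxycycline. SREBF1 (-0.07 ± 0.08 and -0.09 ± 0.08) and SREBF2 (0.12 ± 0.06 and 0.05 ± 0.06) were not called. KLK3 was not called in either arm.

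**Figure D5:**
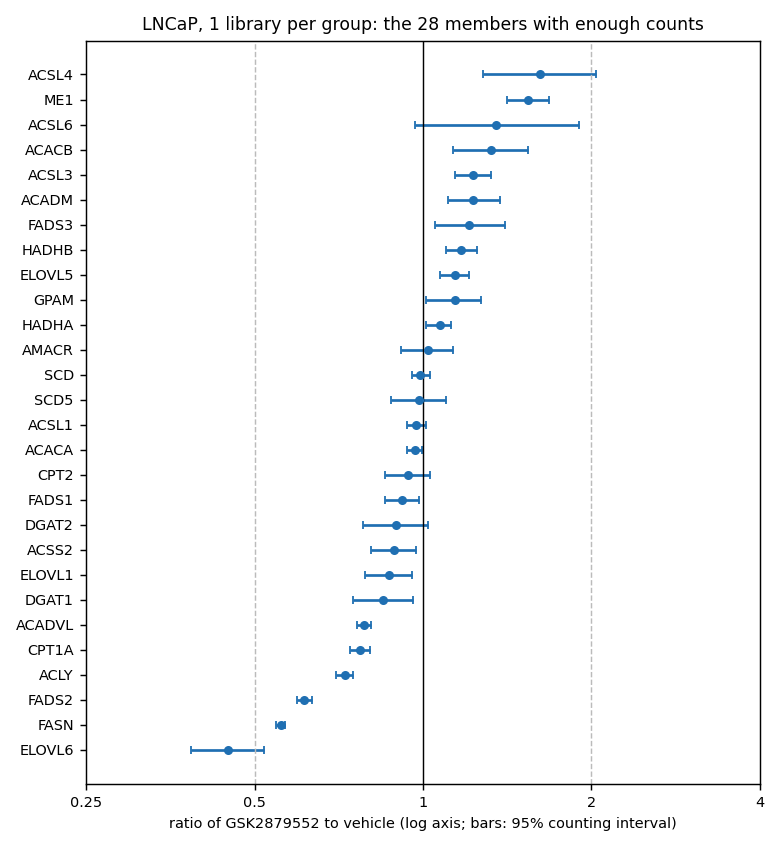
Ratio of the GSK2879552 library to the vehicle library in LNCaP for the 28 members with at least 100 counts in the pair, on a log axis; bars are 95% exact binomial counting intervals and dashed lines mark 2-fold. ELOVL6 (0.447), FASN (0.556) and FADS2 (0.613) are the lowest and ACSL4 (1.62) and ME1 (1.54) the highest.

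In LNCaP the inhibitor was given at 1 µM for 2 days rather than 10 µM for 24 hours, with 1 library per group, so values are set side by side with no test. The 95% exact binomial intervals cover counting error only. Of 28 members with at least 100 counts 1 was more than 2-fold lower (1.4% of all genes) and 0 more than 2-fold higher (1.4%). The palmitate elongase ELOVL6 went from 41.8 to 18.7 CPM (ratio 0.447, interval 0.384 to 0.52). FASN went from 2480 to 1380 CPM (0.556, 0.546 to 0.566), FADS2 from 815 to 500 (0.613, 0.595 to 0.632) and ACLY from 576 to 417 (0.724, 0.7 to 0.75). CPT1A went from 369 to 284 CPM (0.771, 0.739 to 0.805). These lower members come from synthesis, desaturation, elongation and oxidation alike. Over the 28 members the counting interval lay above 1 for 10, below 1 for 11 and spanned 1 for 7. The median log2 ratio was -0.03 over the members and -0.02 over all genes with enough counts. ACACA (0.966), SCD (0.989) and AMACR (1.02) stood near 1, and ACSL3 at 1.23. ME1 (63.3 to 97.6 CPM, 1.54) and ACSL4 (8.87 to 14.3 CPM, 1.62) were the highest. ELOVL5 had a ratio of 1.14 (1.07 to 1.21). Of 70 wider genes with enough counts, PPARG (2.07), a lipid-sensing nuclear receptor, was the 1 past 2-fold higher and the transporter SLC27A3 (0.475) the 1 past 2-fold lower. SREBF1 had a ratio of 0.946 and SREBF2 of 0.649, and KLK3 went from 569 to 271 CPM. Stromal markers summed to 38.8 CPM in the vehicle library and 20.5 in the inhibitor library, and their part was not tested.

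Across the 7 comparisons tested, other than the tests of differences, 29 of the 33 members were called at least once, 26 of them with DHT. ELOVL3, ELOVL4, ACSL6 and HADHA were never called. DHT alone called 24.3% of all genes tested higher and 22.8% lower. The share of all genes called at least once was not computed. Members from outside the DHT calls were SCD5, CPT2 and ACSL5.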

How the data were processed

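RNA-seq read counts per gene were analysed in 22 libraries (30 deposited columns; libraries sequenced on 2 lanes were summed). The authors deposited raw counts for 57773 Ensembl genes per table; per the submitters' processing notes FastQC 0.11.9, STAR 2.7.2 and featureCounts 1.6.4 were used with hg19, and the strand setting is not given in the sources used here. Each table was fitted alone with edgeR 4.0.16 (R 4.3.3): low counts filtered by group, TMM scaling, quasi-likelihood test, Benjamini-Hochberg adjustment over all genes tested, and a call at an adjusted p under 0.05. The model of the DHT table held DHT and doxycycline duration, and a joint model held both C4-2 tables. Pairs of single libraries were compared as TMM-scaled ratios with exact binomial intervals at 95%, where both libraries summed to 100 counts or more, and were not tested. Standard errors are the log2 fold change divided by the root of F. The scripts were tested on simulated data. Alternatives were DESeq2 1.42.0, DESeq2 size factors, no filter, a replicate block and leaving out each library.

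The members and gene lists were chosen with earlier results of these data known. Members are all accounted for by role. FASN, ACACA, ACLY, SCD, ACSL3, CPT1A and AMACR are given in every comparison, with the called members of largest change (4 in each direction), SREBF1, SREBF2, up to 3 called genes of the wider pathway per direction and the 5 genes most like FASN; 2 genes that this rule names are not reported here. Depth per library ran from 4311455 to 22326960 counted reads.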

Additional observations from a re-analysis of the deposited data

Results flagged for a closer look

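The response to DHT differed with doxycycline for 3 members by the test of the difference. It was smaller under doxycycline for ACSS2 (log2 difference -0.35 ± 0.10) and ME1 (-0.35 ± 0.09), and greater for SCD5 (0.56 ± 0.17), with edgeR adjusted p of 0.0191, 0.00793 and 0.0495. DESeq2 made none of these calls.

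The response to 3 days of doxycycline differed between the 2 C4-2 tables for 2 members. ACLY had a log2 difference of -0.50 ± 0.09 (edgeR adjusted p = 0.00127) and ACSS2 of 0.63 ± 0.12 (adjusted p = 0.00232). For ACSS2 this joins a rise in the inhibitor table to a fall in the DHT table, estimated over vehicle and DHT pairs together. That fall was log2 -0.34, and -0.15 without the day-0 DHT library. The ACSS2 difference lost its call without the DHT library of day 0 or day 3 (log2 0.45 and 0.56). The day-0 DHT library also enters the ACSS2 difference of the DHT response, so the 2 flagged ACSS2 results are not independent.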

How the results depend on the processing

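Among counts of called members 179 alternative values stayed within 1.5 times the reported value and 55 did not, and among values of single members 3174 stayed on their side of the threshold, 83 lost a call and 52 gained one. No direction of a called value turned. DESeq2 called 1 member higher with RB1 siRNA, 0 lower after 3 days of doxycycline in the DHT table (0 also with DESeq2 size factors), 3 higher in the difference between the C4-2 tables, and 0 in either direction in the difference of the DHT response. Without the filter 1 member, FASN, was lower with GSK2879552 in each arm, and 2 were higher in the difference between tables. In the difference of the DHT response, no filter gave 0 members higher and 4 lower, and DESeq2 size factors also gave 0 higher. At a 1.5-fold limit 2 members were higher and 3 lower in LNCaP, and with DHT 16 were higher and 1 lower at 0 days, 12 higher at 3 days and 12 at 30 days; with at least 20 counts 1 was lower at 30 days.

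Leaving out 1 library at a time, members called higher and lower ran from 1 to 2 and 2 to 2 for RB1 siRNA, from 2 to 9 and 1 to 4 for doxycycline with DMSO, from 1 to 4 and 0 to 2 for GSK2879552 without doxycycline, and from 0 to 1 and 0 to 2 with it. They ran from 0 to 0 and 0 to 1 for the difference between those arms, from 20 to 22 and 3 to 5 for DHT, from 0 to 2 and 0 to 5 for 3 days and from 2 to 4 and 0 to 9 for 30 days of doxycycline, and from 0 to 4 and 1 to 2 for the difference between tables. For the difference of the DHT response, leaving out a library leaves no residual degrees of freedom, so it was not run.

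Replicate numbers were not taken to pair the libraries: in the inhibitor table deviations of same-numbered libraries correlated at 0.16 to 0.27 among DMSO, doxycycline and both agents but at -0.51 to -0.34 with GSK2879552 alone, and at -0.03 to 0.04 in VCaP, where 3 of 6 libraries correlated best with their own number. With the replicate number as a block, doxycycline with DMSO had 2 members higher and 2 lower, GSK2879552 with doxycycline 0 higher, and RB1 siRNA 3 higher.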
